A study of Canis lupus familiaris with 26 samples.

Results

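GFPT2 (ENSCAFG00000000433) and GALNT15 (ENSCAFG00000005887) encode a pair of enzymes of sugar metabolism and protein glycosylation, and both had lower RNA levels in the stroma of canine mammary adenomas than in normal mammary stroma. They are 2 of the 18466 genes in the count table and were taken by symbol because of that difference, so that their values in the comparison are given as a description, without a test. The RNAseq libraries were prepared from formalin-fixed, paraffin-embedded simple mammary adenomas, which are benign tumours of the mammary epithelium, after the stroma had been cut out by laser-capture microdissection. Adenoma-associated stroma (AAS) and normal stroma were taken from the same slide of each of 13 female dogs of 6 to 13 years, with tissue blocks 4 to 29 months old at analysis. Normal stroma was dissected next to unaltered glands at a distance from the tumour, and the labels call the AAS samples cancer-associated stroma. The dogs were patients with spontaneous tumours that were removed by surgery, and none of the samples comes from a dog without a tumour. Pair 14, in which the normal stroma sample had very few counts, is described apart from the 12 other pairs.

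GFPT2 is 1 of the glutamine-fructose-6-phosphate transaminases, the rate-limiting enzymes of the hexosamine pathway, which turn fructose phosphate and glutamine into glucosamine phosphate. The pathway ends in UDP-N-acetylglucosamine, the donor sugar for N-glycans, hyaluronan and other glycosaminoglycans, and for the O-GlcNAc mark on proteins inside the cell. GALNT15 belongs to the GALNT family of the Golgi apparatus, whose members begin mucin-type O-glycosylation by transferring N-acetylgalactosamine to serine or threonine. In connective tissue the products of these pathways include the sugar chains of the extracellular matrix and of secreted proteins.

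Total counts per sample were 759119 to 1602797 in the 12 normal stroma samples and 419770 to 1614120 in the 12 AAS samples. A count of 3, taken here as the limit of detection, equalled 1.46 to 6.08 CPM (the count scaled to the normalized size of the library) in normal stroma and 1.46 to 26.7 CPM in AAS. The AAS sample of pair 7 stood apart, with 84.9% of its counts in 1 gene, 1220 genes at 10 or more counts and the detection limit of 26.7 CPM. The AAS samples of pairs 7, 8, 10 and 15 had the fewest counts of the 24 samples. Of 4544 genes that passed the filter on low counts, 82 (1.8%) were called between AAS and normal stroma in the quasi-likelihood test of edgeR, with an adjusted p below 0.05 and a change of more than 1 on the log2 scale. Of these 28 were higher in AAS (0.616%) and 54 lower (1.19%), and both enzymes are among the 54, by the same contrast for which they were chosen. GFPT2 passed the filter through its levels in normal stroma. For GALNT15, with 7 counts in the normal stroma sample of pair 7, AAS samples were needed as well.

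The stromal label was compared with marker genes. All 9 of the 13 fibroblast markers that could be assigned to an identifier passed the filter, and their summed level was 2586 to 22160 CPM in normal stroma and 775 to 7842 CPM in AAS, lower in AAS in 10 of 12 pairs. Among them DCN, the proteoglycan decorin (log2 fold change -1.96, SE 0.45, adjusted p = 0.00994), the matrix protein FBLN1 (-1.71, SE 0.37, adjusted p = 0.00507) and the intermediate filament VIM (-1.13, SE 0.24, adjusted p = 0.00418) were called lower in AAS. The other 6 markers, which include PDGFRA, a growth factor receptor of fibroblasts (-0.44, SE 0.31, adjusted p = 0.737), were not called. Among these the collagen COL1A2 (-1.36, adjusted p = 0.0531) passed in edgeR with the pair as a block (-1.44, adjusted p = 0.00204). COL1A2 also passed by DESeq2 (-1.39, adjusted p = 0.0106) and in an edgeR fit over genes averaging 5 counts or more (-1.35, adjusted p = 0.0405). In bulk samples, fewer cells of a type and less RNA per cell cannot be told apart. Of the other lists 3 of 15 epithelial, 2 of 10 endothelial, 3 of 12 leukocyte, 1 of 11 adipocyte and 2 of 9 smooth muscle and myoepithelial markers had an identifier. Their summed levels in normal stroma and in AAS were 86.2 to 227 and 91.2 to 278 CPM for the epithelial, 8.81 to 85.2 and 0 to 60.5 CPM for the endothelial, and 39.7 to 204 and 98.1 to 391 CPM for the leukocyte markers. The smooth muscle and myoepithelial markers summed to 31.7 to 174 and 35.7 to 359 CPM, and the adipocyte marker LEP was at 0 in 19 of 24 samples. Of these genes only CD74, the invariant chain of antigen presentation, was called (higher in AAS, log2 fold change 2.18, SE 0.38, adjusted p = 0.000348). The other 2 leukocyte markers, the macrophage genes CD163 (-0.77, SE 0.48, adjusted p = 0.655) and CSF1R (-0.84, SE 0.53, adjusted p = 0.666), had negative values.

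GFPT2 was detected in every normal stroma sample, from 44.9 CPM in pair 11 over a median of 63.9 CPM to 237 CPM in pair 7. In AAS it ranged from 0 over a median of 2.89 CPM to 18.7 CPM in pair 6. The groups did not overlap: the lowest normal stroma sample stood above the highest AAS sample, which was the case for 8 of the 4544 genes (0.176%). GFPT2 was also lower in AAS within each of the 12 pairs, as were 46 genes in all (1.01%).

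Behind these levels stood 1103 GFPT2 counts in normal stroma and 100 in AAS. No count was seen in the AAS samples of pairs 3, 7, 10, 12 and 15, and 6 of the 12 AAS samples had 3 counts or fewer. The detection limits in these 5 samples were 2.29, 26.7, 10.0, 3.16 and 5.47 CPM, so that even in the AAS sample of pair 7 the limit lay below the lowest normal stroma value. Pairs 6 and 9 kept the highest AAS levels of GFPT2, with 18.7 and 17.0 CPM.

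The mean level of GFPT2 was 89.8 ± 59.3 CPM (SD, n = 12) in normal stroma and 5.45 ± 6.76 CPM (SD, n = 12) in AAS, and its fitted log2 fold change was -3.79 (SE 0.54). By this value it was the 3rd among the 2235 genes that were lower in AAS. Within pairs, log2 CPM differed by -4.04 ± 1.76 (SD, n = 12), from -7.03 in pair 7 to -1.32 in pair 6. The AAS sample of pair 7 had no GFPT2 count and a detection limit of 26.7 CPM. The size of its difference therefore depends on the prior count of 2 added before the logarithm. The same holds for the other pairs with no count in AAS. Among the normal stroma samples pairs 5, 7 and 15, with 154, 237 and 148 CPM, stood above the remaining 9, which lay between 44.9 and 90.4 CPM.

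GALNT15, whose gene overlaps a long non-coding RNA in a dog assembly, was likewise detected in all normal stroma samples, from 11.1 CPM in pair 7 over a median of 50.5 CPM to 117 CPM in pair 11. In AAS its lowest level was 0, its median 11.6 CPM and its highest level 26.7 CPM, in pair 7. Here the groups overlapped: 2 normal stroma samples lay below the highest AAS sample, and 8 AAS samples lay above the lowest normal stroma sample. GALNT15 fell from normal stroma to AAS in 11 of 12 pairs, and a difference of this direction in at least 10 pairs was seen for 311 genes (6.84%). The share of genes with this direction in at least 11 pairs was not counted.

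The exception was pair 7, where GALNT15 was 11.1 CPM in normal stroma (7 counts) and 26.7 CPM in AAS (3 counts, the detection limit). Without pair 7 the normal stroma samples spanned 13.4 to 117 CPM and the AAS samples 0 to 19.7 CPM, with lower levels in AAS in 11 of 11 pairs, and 1 normal stroma sample remained below the highest AAS sample. The lower levels in all remaining pairs follow from leaving out the only pair with a rise. The share of all genes for these counts without pair 7 was not counted. GALNT15 had no count in the AAS samples of pairs 3, 5, 10 and 15, whose detection limits were 2.29, 1.81, 10.0 and 5.47 CPM. In pair 6 its level was nearly equal in both samples, with 13.4 CPM in normal stroma and 11.4 CPM in AAS.

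The mean level of GALNT15 was 62.5 ± 38.7 CPM (SD, n = 12) in normal stroma and 11.0 ± 9.16 CPM (SD, n = 12) in AAS, from 972 and 140 counts, and the log2 fold change was -2.56 (SE 0.57). It was the 16th among the genes that were lower in AAS. Within pairs, log2 CPM differed by -2.64 ± 2.08 (SD, n = 12), from -5.93 in pair 10 to 1.14 in pair 7. The AAS sample of pair 10 had no GALNT15 count, so that the size of its difference depends on the prior count. The normal stroma samples fell into a higher set of 5 with 86.8 to 117 CPM (pairs 8, 9, 10, 11 and 13) and a lower set of 7 with 11.1 to 52.8 CPM, and the AAS samples of both sets were at 18.0 CPM or below except those of pairs 4 and 7.

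**Figure D1:**
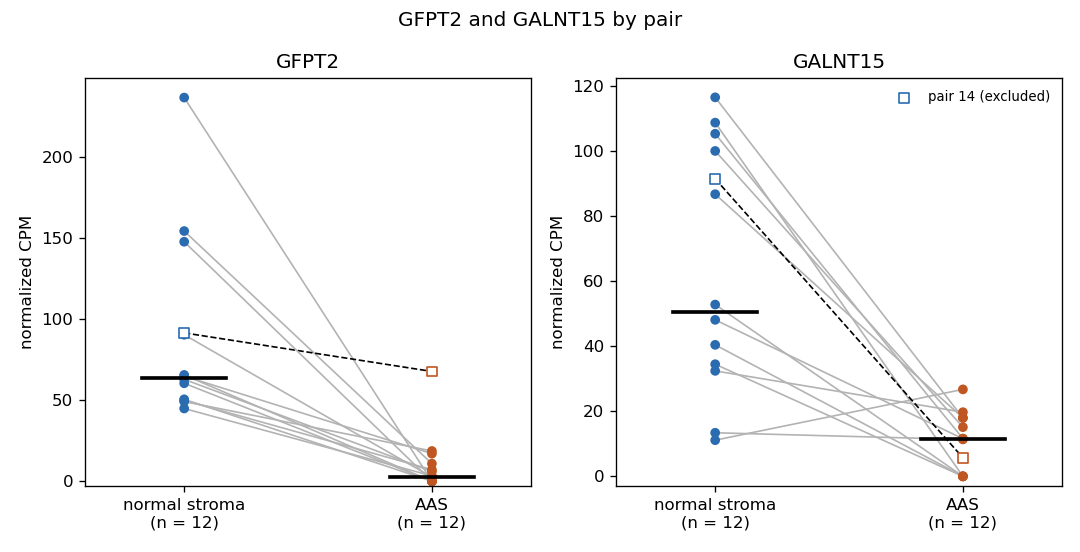
Normalized CPM (vertical axis) of GFPT2 (left) and GALNT15 (right) in normal stroma and AAS, where each line joins the 2 samples of 1 dog, black bars are medians of the 12 pairs and open squares are pair 14, which is scaled together with all 13 pairs. The normal stroma values of GFPT2 (44.9 to 237 CPM) lie above all 12 AAS values (0 to 18.7 CPM), whereas GALNT15 overlaps and rises in pair 7.

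Among samples of normal stroma GFPT2 varied less than GALNT15, with an SD of log2 CPM of 0.76 against 1.09. These SDs stand at the 37.6th and 60.8th percentile of all tested genes. In AAS the SDs were 1.39 and 1.65, at the 65.9th and 87.0th percentile, and in both genes they include samples with no count. Leaving out pairs 7, 8, 10 and 15, the 4 with the shallowest AAS samples, moved the log2 fold change of GFPT2 to -3.06 and that of GALNT15 to -2.40.

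The comparison by which the genes were chosen did not use pair 14. Its normal stroma sample held 83727 counts, of which 13 were GFPT2 and 13 GALNT15, or 91.5 CPM each (95% exact Poisson interval 48.7 to 157). In its AAS sample, with 824086 counts, GFPT2 stood at 67.7 CPM (71 counts, 52.9 to 85.4). This is above the GFPT2 level of the 12 other AAS samples, which reached at most 19.2 CPM on this scale, and above 8 of the 12 normal stroma samples. GALNT15 in the same AAS sample was 5.72 CPM (6 counts, 2.10 to 12.5), and thus within the range of the other AAS samples. The differences in log2 CPM of this pair were -0.42 for GFPT2 and -3.61 for GALNT15, and PDGFRA was 91.5 CPM in its normal stroma and 100.2 CPM in its AAS. With all 13 pairs the log2 fold change of GFPT2 was -3.01 and that of GALNT15 was -2.65. The intervals cover counting error only.

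Since fibroblast markers were lower in AAS too, each enzyme was set against them within pairs. PDGFRA differed by -0.52 ± 1.19 in log2 CPM (SD, n = 12), with a lower value in the AAS sample of 8 of 12 pairs. The mean of the 9 fibroblast markers differed by -1.35 ± 0.91 (SD, n = 12), and all 12 pairs had the lower value in AAS.

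Relative to PDGFRA, GFPT2 remained lower in AAS by a mean log2 difference of -3.52 ± 2.05 (SD, n = 12), and relative to the fibroblast mean by -2.69 ± 1.58, with values below 0 in 12 of 12 pairs in both cases. For GALNT15 the difference was -2.12 ± 1.96 relative to PDGFRA, below 0 in 10 of 12 pairs, and -1.28 ± 2.03 relative to the fibroblast mean, below 0 in 8 of 12 pairs. The fall of GFPT2 was larger than that of the fibroblast mean in each pair, which was not the case for GALNT15. Both enzymes were chosen for their fall in these pairs, so that a larger fall than that of the markers is no independent result. Its size in pairs with no count in AAS depends on the prior count. The part of fibroblast content in either difference was not tested.

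**Figure D2:**
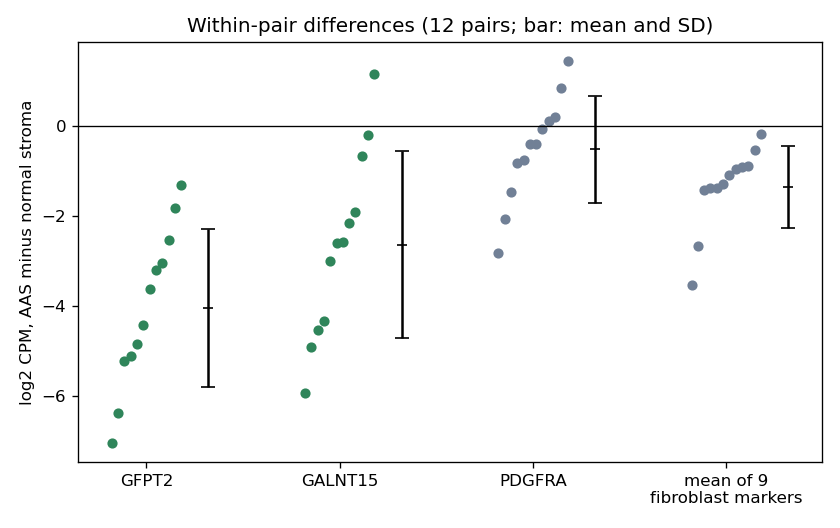
Difference in log2 CPM between AAS and normal stroma of the same dog (vertical axis) for GFPT2, GALNT15, PDGFRA and the mean of 9 fibroblast markers, where points are the 12 pairs in ascending order and bars are the mean and SD. All GFPT2 points lie between -7.03 and -1.32, and 1 GALNT15 point, from pair 7, lies above 0. Where the AAS sample had no count, the size of the difference depends on the prior count.

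The comparison of the 12 pairs was then examined for the other genes of hexosamine metabolism and O-glycosylation. The lists hold 105 genes, of which 26 had an identifier, and of the 24 other than GFPT2 and GALNT15, 11 passed the filter and 13 did not. None of the 11 was called by edgeR (1.8% of all tested genes), by DESeq2 (2.95%) or with the pair as a block (2.53%), and 2 of the 11 had an unadjusted p below 0.05 in edgeR (10.5% of all tested genes). With 11 genes, a count of 0 is close to these shares and says nothing particular about the lists. Their log2 fold changes ran from -1.28 to 1.10, with 4 higher and 7 lower in AAS and a median of -0.22, where the median of all tested genes was 0.01.

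In hexosamine synthesis and salvage, 4 of 11 genes had an identifier. GFPT1, the paralog that catalyses the same step as GFPT2, was removed by the filter, with 3.78 ± 5.43 CPM in normal stroma and 4.41 ± 3.67 CPM in AAS (SD, n = 12) and no count in 9 samples. In a fit that admitted the 7763 genes averaging 5 counts or more, in which 1.97% of genes were called, GFPT1 had a log2 fold change of 0.27 (SE 0.82, adjusted p = 0.977). The summed level of GFPT1 and GFPT2 was 54.6 to 237 CPM in normal stroma and 0 to 24.3 CPM in AAS, lower in 12 of 12 pairs. In normal stroma this sum is mostly GFPT2, which was chosen for its lower level in AAS, so that the sum adds no separate result.

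PGM3, the phosphoglucomutase that carries N-acetylglucosamine phosphate on towards the nucleotide sugar, was 22.3 ± 16.8 CPM in normal stroma and 11.9 ± 9.87 CPM in AAS (SD, n = 12). It had a log2 fold change of -0.89 (SE 0.63, adjusted p = 0.733), with lower values in AAS in 7 pairs and higher values in 4. Of the 3 other genes with an identifier on this list, PGM3 alone passed the filter, and GNPDA2 had no count in 22 of 24 samples.

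Of 16 genes that feed the pathway or use its product, 6 had an identifier and 3 passed the filter, none of them called. The glucose transporter SLC2A1 had a log2 fold change of 0.75 (SE 0.44, adjusted p = 0.620). OGA, which removes O-GlcNAc from proteins, measured 8.23 ± 8.78 CPM in normal stroma and 16.5 ± 14.7 CPM in AAS (log2 fold change 0.98, SE 0.70, adjusted p = 0.737). GNE, which starts sialic acid synthesis from UDP-N-acetylglucosamine, had -0.36 (SE 0.51, adjusted p = 0.919). HAS1, a hyaluronan synthase, was below the filter and had a log2 fold change of -1.08 (adjusted p = 0.815) in the fit over 7763 genes.

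The GALNT family was represented by 5 of its 20 genes, and of the 4 besides GALNT15 none was called. GALNT1 was 12.2 ± 5.79 CPM in normal stroma and 26.1 ± 17.5 CPM in AAS (SD, n = 12), higher in 9 of 12 pairs, with a log2 fold change of 1.10 (SE 0.42, adjusted p = 0.255). GALNT11 was lower in 9 of 12 pairs, with 23.3 ± 14.2 and 11.4 ± 7.57 CPM and a log2 fold change of -0.97 (SE 0.51, adjusted p = 0.538). GALNT2 and GALNT12 were below the filter, with -0.54 (adjusted p = 0.914) and -0.40 (adjusted p = 0.957) in the fit over 7763 genes.

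Summed over GALNT1, GALNT2, GALNT11 and GALNT12, the level was 20.1 to 81.7 CPM in normal stroma (median 60.5) and 13.4 to 92.1 CPM in AAS (median 49.1), lower in 5 pairs and higher in 7. With GALNT15 included, the sum had a median of 113 CPM in normal stroma and 61.4 CPM in AAS and was lower in 11 of 12 pairs. GALNT15 was chosen for its lower level in AAS, which the second sum therefore includes.

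Of 20 genes that extend mucin-type O-glycans, 6 had an identifier and 4 passed the filter, none of them called. GCNT7, a member of the glucosaminyltransferase family, had the lowest log2 fold change among the 11 tested genes other than GFPT2 and GALNT15 (-1.28, SE 0.62, adjusted p = 0.472). The sialyltransferase ST3GAL1 (0.08, SE 0.55), the galactosyltransferase B4GALT1 (-0.01, SE 0.30) and B3GNT3 (-0.23, SE 0.21) lay closer to 0. C1GALT1, which adds galactose to the N-acetylgalactosamine that GALNT enzymes attach, had no count in 12 of 24 samples. Of 19 genes of other O-glycosylation, 2 had an identifier, and the O-fucosyltransferase POFUT1 passed the filter (-0.38, SE 0.35, adjusted p = 0.835). Of 19 genes of glycosaminoglycan chain synthesis, 3 had an identifier and none passed the filter.

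**Figure D3:**
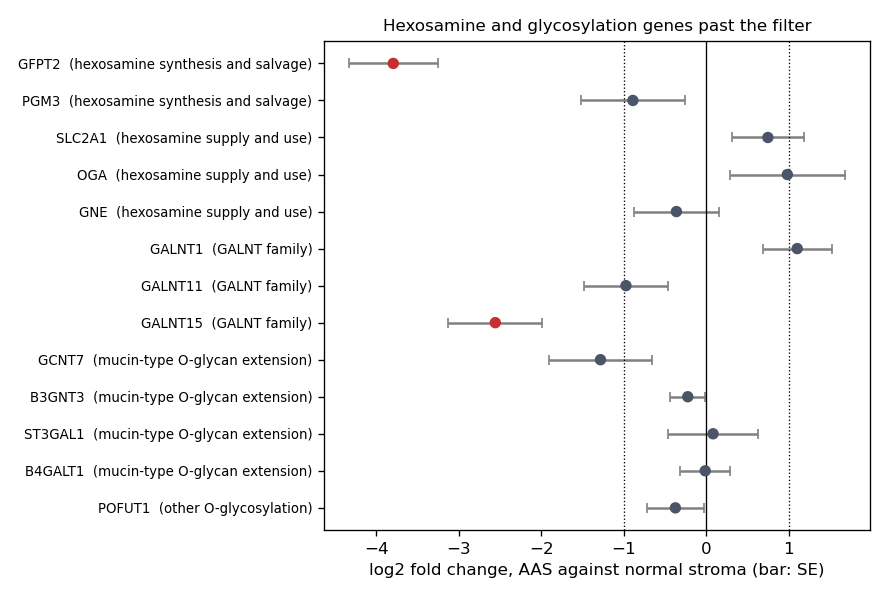
Fitted log2 fold change of AAS against normal stroma (horizontal axis, bars are SE, 12 samples per group) for the 13 genes of the hexosamine and glycosylation lists that passed the filter, with dotted lines at -1 and 1. GFPT2 (-3.79) and GALNT15 (-2.56), in red, were chosen by this contrast, and the 11 other genes lie between -1.28 and 1.10.

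Whether both enzymes varied together among samples of 1 group was not used in choosing them. In normal stroma the log2 CPM of GFPT2 and GALNT15 had r = -0.45 (permutation p = 0.139, adjusted p = 0.382 over 11 relations) and rho = -0.43 (permutation p = 0.170). Without the 2 samples farthest from the median of GFPT2, r was 0.04. In AAS r was 0.32 (permutation p = 0.304, adjusted p = 0.557) and rho 0.36 (permutation p = 0.252), and for the within-pair differences r was 0.19 (permutation p = 0.566, adjusted p = 0.655) and rho 0.33 (permutation p = 0.300). Without the 2 farthest samples these r were 0.19 in AAS and 0.61 for the differences. These values depended on single pairs. In normal stroma r was -0.70 without pair 6 (permutation p = 0.0155, adjusted p = 0.0568) and -0.12 without pair 7, and in AAS it was 0.53 without pair 5 (permutation p = 0.0986, adjusted p = 0.283). For the within-pair differences r was 0.71 without pair 7 (permutation p = 0.0156, adjusted p = 0.0996) and 0.01 without pair 6. None of these relations of GFPT2 with GALNT15 passed the adjusted threshold.

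The level of GALNT15 in normal stroma was related to the age of the tissue block. In the 4 blocks of 20 to 29 months it was 11.1 to 34.5 CPM (median 22.9), and in the 8 blocks of 4 to 15 months 40.5 to 117 CPM (median 93.4). The split at 15 months was set after the data were seen, and the share of all genes that separate at it was not counted. Over the 12 samples r was -0.77 (permutation p = 0.00394, adjusted p = 0.0433) and rho -0.62 (permutation p = 0.0375, adjusted p = 0.206), and r was -0.64 without the 2 samples farthest from the median block age (permutation p = 0.046). The relation rests on the contrast between both sets of blocks: within the 8 blocks of at most 15 months r was 0.14 (exact permutation p = 0.739), and the 4 older blocks are too few for a value. Leaving out any 1 of pairs 4, 5, 6, 7, 9, 11 or 13 raised the adjusted p above 0.05, with r between -0.83 and -0.65 over all 12 omissions (-0.65 without pair 7, adjusted p = 0.111). For comparison, r with block age in normal stroma was lower than that of GALNT15 in 32 of the 4544 genes (0.704%), the median over all genes was -0.03, and the values for PDGFRA, the fibroblast mean and log2 total count were -0.59, -0.52 and -0.11. Total count does not show the whole of depth. The normal stroma samples of the 4 older blocks (pairs 4, 5, 6 and 7) had detection limits of 6.08, 2.59, 3.35 and 4.77 CPM. In the 8 younger ones the limits were 1.46 to 3.30 CPM. Genes at 10 or more counts numbered 3341 to 5508 in the older and 4137 to 7470 in the younger samples. The part of detection limit or RNA quality in this relation was not tested.

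In AAS no relation of GALNT15 to block age was detectable (r = 0.07, permutation p = 0.819, adjusted p = 0.819, rho = 0.15), with 0 to 26.7 CPM in the older and 0 to 18.0 CPM in the younger blocks. The within-pair difference of GALNT15 had r = 0.46 with block age (permutation p = 0.128). GFPT2 in normal stroma had r = 0.40 with block age (permutation p = 0.205, adjusted p = 0.451, rho = 0.11), which turned to -0.50 without the 2 farthest samples. Its normal stroma levels were 49.1 to 237 CPM in the older and 44.9 to 148 CPM in the younger blocks, and in AAS r was 0.17 (permutation p = 0.595, adjusted p = 0.654).

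**Figure D4:**
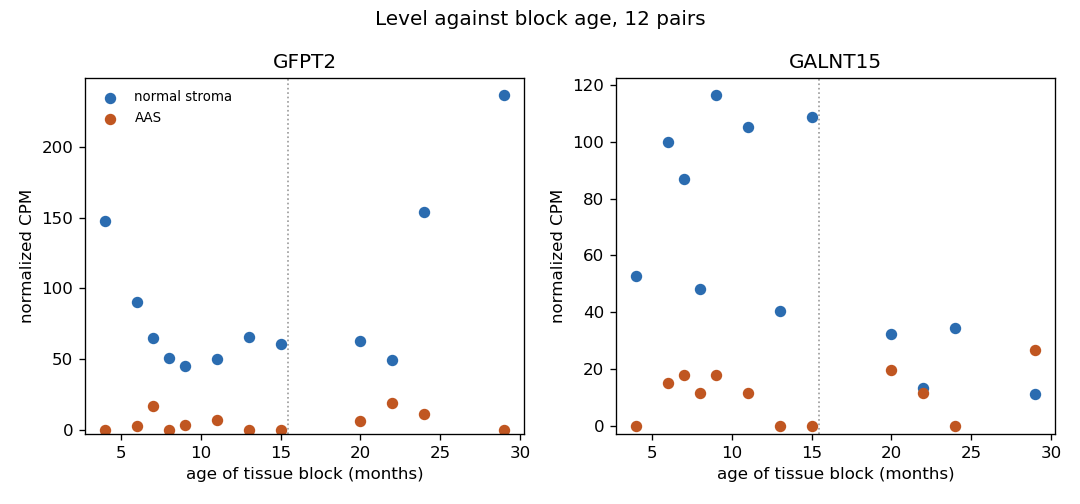
Normalized CPM (vertical axis) of GFPT2 (left) and GALNT15 (right) against the age of the tissue block in months (horizontal axis) for the 12 normal stroma (blue) and 12 AAS samples (orange), with a dotted line between the blocks of at most 15 months and the older ones. Normal stroma levels of GALNT15 are 40.5 to 117 CPM to the left and 11.1 to 34.5 CPM to the right of the line, whereas those of GFPT2 overlap.

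The log2 CPM of GFPT2 in AAS had r = 0.73 with log2 total count (permutation p = 0.0109, adjusted p = 0.0600) and rho = 0.66 (permutation p = 0.0242, adjusted p = 0.206), and r was 0.63 without the 2 farthest samples and 0.54 with pair 14 added (permutation p = 0.0588, adjusted p = 0.323). The 4 shallowest AAS samples had 0, 2, 0 and 0 GFPT2 counts (pairs 7, 8, 10 and 15). In the 8 deeper pairs, GFPT2 was 0 to 18.7 CPM in AAS and 44.9 to 154 CPM in normal stroma. In normal stroma r with depth was -0.26 for GFPT2 (permutation p = 0.431, adjusted p = 0.593, rho = -0.13) and 0.48 for GALNT15 (permutation p = 0.110, adjusted p = 0.382, rho = 0.33). For GALNT15 in AAS it was 0.26 (permutation p = 0.396, adjusted p = 0.593, rho = 0.29). The part of depth in the difference between the groups was not tested.

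Among the 1855 other genes with a symbol that passed the filter, the one with the pattern most like GFPT2 over the 24 samples was C1QTNF4, a secreted protein with a C1q domain (r = 0.93). It was followed by CLEC3B, the plasminogen-binding tetranectin (r = 0.88), the secreted SCUBE2 (0.86), the scaffold protein AHNAK (0.84) and the scavenger receptor SSC5D (0.84). For GALNT15 the order was F13A1, the catalytic subunit of a fibrin-crosslinking coagulation factor (r = 0.85), the proton pump subunit ATP6V0D2 (0.81), CLEC3B (0.79), the cytokine IL16 (0.79) and OLFML1 (0.78). All of these were lower in AAS by their fitted value, from -3.96 for C1QTNF4 to -1.76 for AHNAK in log2 fold change, and such r are set largely by the difference between the groups.

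After each group's mean was subtracted, the genes most like GFPT2 included the transcription factor TCF4 (r = 0.70), COL18A1, a basement membrane collagen (0.69), and the immediate early genes ZFP36 (0.68) and EGR1 (0.68). For GALNT15 they were the RNA-binding HNRNPK (0.78), the semaphorin receptor PLXNC1 (0.75), GRIPAP1 (0.74), CRYBG1 (0.72) and the translation elongation factor subunit EEF1D (0.72). None of these genes was shared between both enzymes. GFPT2 and GALNT15 had r = 0.66 with each other over the 24 samples, which is the 78th highest for GFPT2 and the 56th for GALNT15, and 0.11 after the group means were subtracted, at ranks 977 and 1026. These correlations describe 24 libraries that are paired by dog and differ in depth, and the part of depth in them was not tested.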

How the data were processed

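RNAseq of 13 pairs of laser-captured AAS and normal stroma was analysed. The authors quantified reads with kallisto 0.44.0 on Ensembl transcripts of CanFam3.1, summed them per gene with tximport, and deposited estimated counts without normalization. All values were whole, so that rounding changed none, and no columns were identical. Groups and pair numbers come from the sample titles. Both samples of a number come from the same dog, and their deviations from the group means had a mean r of 0.125, against -0.00597 for samples of different dogs. Pair 14 was left out for depth, following the study's methods.

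Low counts were removed by filterByExpr, and after TMM normalization the genes were fitted in edgeR 4.0.16 (R 4.3.3, quasi-likelihood) with the group as the only term. A call required a Benjamini-Hochberg adjusted p below 0.05 over 4544 genes and a log2 fold change beyond 1. The SE is the size of the log2 fold change divided by the root of the F statistic. Log2 CPM carries a prior count of 2. Relations were tested two-sided with 100000 permutations (scipy 1.17.1, Python 3.11.15), or exactly for fewer than 10 samples, and adjusted over 11 relations. On simulated counts for the comparison of AAS with normal stroma, 200 genes were changed by 2 on the log2 scale. The filter, applied again to the simulated counts, left 3987 genes for testing. Of the 200 changed genes 134 were recovered, with 0 false calls, and changed genes removed by this filter could not be recovered.

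The biological coefficient of variation, from the fit without a pair term, was 66.7%, so that the spread between samples of a group limits the precision of well-counted genes. Detection limits (3 counts) and intervals cover counting error only. Symbols, paired with 3302 of 18466 identifiers (1856 tested), come from the study's supplementary tables, which list changed genes preferentially, and no fold changes or p-values of the authors were used. DESeq2 1.42.0 and the other settings described under the dependence on processing served as alternatives. Further settings were RLE normalization, a fit without the 10 most counted genes, and DV200, from the study's table of RNA quality, as a covariate. With DV200 the log2 fold change was -3.96 for GFPT2 and -2.56 for GALNT15, and 79 genes were called. The RNA input differs between the labels and the methods. A dog assembly of another build (UU_Cfam_GSD_1.0) was used only for neighbours. In it GFPT2 overlaps no gene and GALNT15 overlaps LOC119865381, a long non-coding RNA. How strand was handled in counting is not given in the sources used here, so that reads of GALNT15 and this RNA may not be told apart.

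The genes described and the lists were chosen with earlier results of these data known. Named were both enzymes, called genes of the lists, their paralogs and pathway neighbours (GFPT1, PGM3, GALNT1, GALNT2, GALNT11, GALNT12, OGA, GNE and C1GALT1), and for each enzyme the 5 genes with the highest r over 24 samples and the 5 after subtracting group means, of which 1 for GFPT2 is not reported here. SLC2A1, HAS1, GNPDA2, GCNT7, ST3GAL1, B4GALT1, B3GNT3, POFUT1, PDGFRA, COL1A2, CD163, CSF1R and LEP fall outside this rule and were named after their values were seen.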

Additional observations from a re-analysis of the deposited data

How the results depend on the processing

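Over 24 alternative settings, which reuse the contrast by which the genes were chosen, the log2 fold change of GFPT2 ran from -4.34 (DESeq2 with the pair as a block) to -3.01 (all 13 pairs) and that of GALNT15 from -2.96 to -2.36. Leaving out 1 pair at a time gave -4.13 to -3.54 for GFPT2 and -2.75 to -2.36 for GALNT15. With the pair number as a replicate block in edgeR they were -4.13 and -2.82, 115 genes were called, and among the named genes of the hexosamine, glycosylation and marker lists the block changed no call but that of COL1A2 (adjusted p = 0.00204 with the block). None of the 24 settings called another gene of the 6 hexosamine and glycosylation lists. The count of all genes called, 82, moved to 134 with DESeq2, 227 with DESeq2 and the block, 54 with library totals in place of TMM, 1690 of 18441 genes without a filter on low counts and 153 of 7763 with a filter on a mean of 5 counts, and leaving out 1 pair at a time gave 71 to 93. The cause was not tested. Relative to other settings of the prior count and to the fibroblast markers, the mean within-pair difference was -5.00 to -2.69 for GFPT2 and -3.33 to -1.28 for GALNT15. The r of GALNT15 with block age in normal stroma (-0.77) turned to 0.14 in the 8 blocks of at most 15 months and was -0.83 to -0.65 when 1 pair at a time was left out. The r of GFPT2 with total count in AAS was 0.67 to 0.84 when 1 pair at a time was left out, past the threshold without pair 3 (0.84, permutation adjusted p = 0.0306) and without pair 8 (0.77, permutation adjusted p = 0.0477) and 0.54 with all 13 pairs (permutation adjusted p = 0.323). The settings with all 13 pairs and the block, without pairs 7, 8, 10 and 15, relative to fibroblast markers, within young blocks, and leaving out pairs from the relations were added after seeing the data. At these depths, genes such as GFPT1 with few counts cannot show a small difference.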
